A study of Homo sapiens with 54 samples.

Results

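MDA-MB-231 cells given macrozamin, oxymatrine and oxysophocarpine together (MOO) for 24 h were compared with untreated cells of the same time point. The members were chosen by their labels alone: all 3 MOO libraries and all 3 untreated libraries at 24 h in batch 1, which are 6 of the 54 libraries of the series. MOO was given at an amount equivalent to 2 mg/ml of Compound Kushen Injection (CKI), the herbal mixture from which the 3 compounds come, and it holds none of the other CKI components. For comparison, 3 libraries of oxymatrine with oxysophocarpine (OO) and 3 of whole CKI, both at the same 2 mg/ml equivalent, 24 h and batch 1, were used, together with 3 MOO and 3 untreated libraries at 48 h in batch 1. Every group was the same established line from a human breast cancer, and the labels name no genetic change in any of them. The labels call the controls untreated and name no vehicle, so the components and the fluid they came in cannot be told apart. The labels do not say that replicates came from separate cultures, and p-values then measure only the spread between these libraries, which may be technical.

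Oxymatrine and oxysophocarpine are N-oxides of the quinolizidine alkaloids of Sophora roots, and macrozamin is an azoxy glycoside known as a toxin of cycads. MDA-MB-231 is a basal, mesenchymal-like line without estrogen receptor, widely used to study migration and invasion. Cells under metabolic stress phosphorylate a translation factor, which lowers protein synthesis while the transcription factor ATF4 and its partner CHOP are made and switch on genes for amino acid supply and cell death. Other programmes are read out by well known genes: oxidative stress through NRF2, low oxygen through hypoxia-inducible factors, and viral or interferon sensing through the interferon-stimulated genes.

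Total counts on genes were between 18649291 and 24918928 in the 6 libraries. All 10 genes listed as markers of basal breast cancer lines were above 1 CPM (a gene's reads scaled to the same library size in every sample) on average in both groups, and their summed level was between 6460 and 6820 CPM in untreated and between 5360 and 5440 CPM in MOO libraries. This list includes the epithelial keratin gene KRT18, which does not mark basal lines alone. The 8 colon epithelium markers summed to at most 0.468 CPM, and of the 7 markers of an embryonic kidney line 5 had no count in either group. Fibroblast markers summed to between 57.5 and 65 CPM untreated and between 28.2 and 31.1 CPM with MOO, and glioma markers to between 38 and 38.7 CPM untreated and between 22.2 and 25.9 CPM with MOO, with COL1A2 and NES the most abundant member of each list. The glioma marker BCAN was called higher, on 1, 0 and 2 reads untreated and 14, 13 and 22 reads with MOO. The part of other cells in these differences was not tested. The luminal markers summed to between 675 and 795 CPM untreated and between 715 and 918 CPM with MOO. Of the 8 luminal markers 5 averaged at least 1 CPM untreated and 4 with MOO, so that the list as a whole was not absent. Their defining member ESR1 had at most 1 read in each of the 6 libraries. OO replicate 2 and CKI replicate 1 stood apart from their groups: across 1106 genes that differed by over 1 on the log2 scale between the batches in untreated cells at 48 h, their deviations from the other replicates followed that difference with slopes of 0.574 and 0.624, while the slopes of the 6 libraries at 24 h compared here were between -0.0435 and 0.0816. Comparisons with OO and CKI, and the count of the fit that pools all groups of this batch and time, are given with and without them.

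After 24 h of MOO, 5097 of 14249 genes tested (35.8%) were differentially expressed (DE), that is, had an adjusted p under 0.05 by edgeR's quasi-likelihood test. Of these, 2577 (18.1%) were higher and 2520 (17.7%) lower than in untreated cells. Most changes were small, and 709 genes (4.98%) changed by 1 or more on the log2 scale, 323 (2.27%) upward and 386 (2.71%) downward. In 1 fit of all 18 libraries of batch 1 at 24 h, which shares the spread with groups that hold libraries standing apart, 1588 of 15191 genes tested were DE. Without OO replicate 2 and CKI replicate 1 the number was 2011 of 15461. The counts of list members called in these fits are to be read beside these totals, which are smaller than in the main fit. The list counts printed below for the fit of all 18 libraries were within 1.5 times of those without these 2 libraries, apart from the lists where both are printed. Leaving out single libraries gave between 3527 and 5403.

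**Figure D1:**
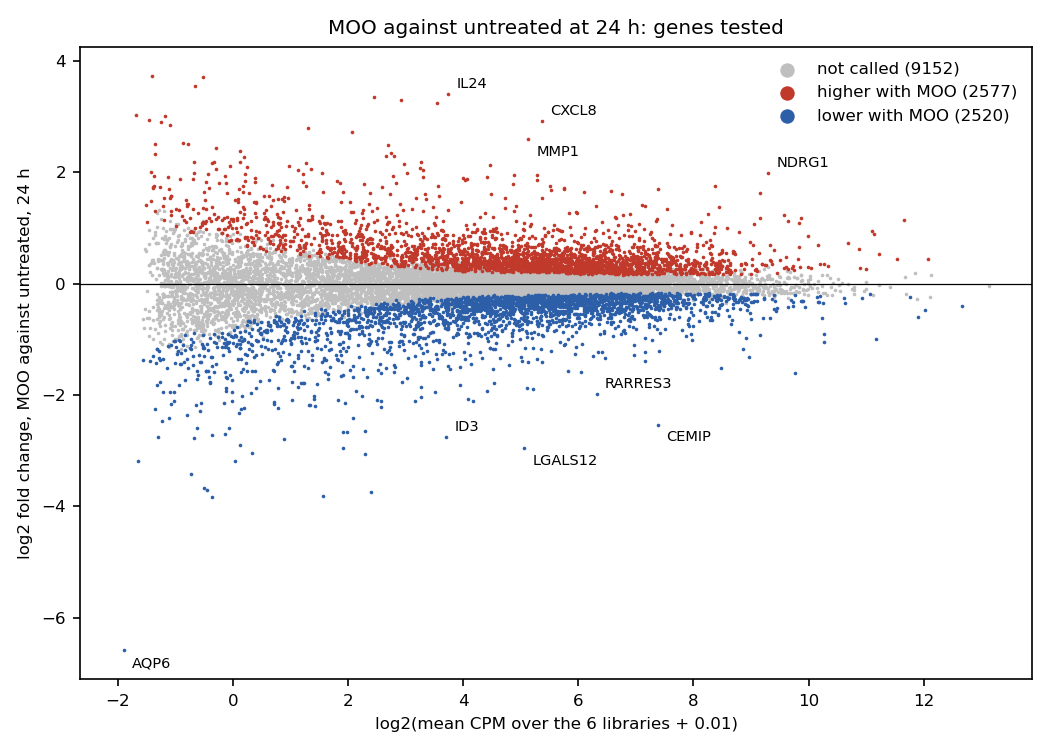
Each point is 1 of the 14249 genes tested, with the log2 of its mean CPM over the 6 libraries plus 0.01 on the x axis and its log2 fold change with MOO at 24 h on the y axis. The 2577 genes called higher are red, the 2520 called lower are blue and the rest grey, and AQP6, at the bottom, had no read in the MOO libraries, so that its fitted value is not a measured size.

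IL24, a secreted cytokine of the IL-10 family, was between 1.83 and 2.96 CPM in untreated libraries and at 25.6, 25.5 and 24.0 CPM in MOO libraries, a log2 fold change of 3.40 ± 0.14 (SE) with an edgeR adjusted p of 6.09e-08. LUCAT1, a long noncoding RNA induced by stress, was at 2.33, 2.13 and 2.42 CPM untreated and at 18.1, 22.8 and 24.1 CPM with MOO. CXCL8, the neutrophil chemokine interleukin-8, was at 9.13, 10.5 and 9.85 CPM untreated and at 73.3, 72.7 and 78.8 CPM with MOO (log2 fold change 2.92 ± 0.09, edgeR adjusted p 1.37e-08). In all 3 genes the lowest MOO library was several times the highest untreated library. MMP1, the interstitial collagenase, rose from 10.4, 10.8 and 9.08 CPM to 61.1, 60.2 and 62.5 CPM (2.60 ± 0.09). NDRG1, a stress and hypoxia gene, rose from 258, 261 and 257 CPM to 1040, 1017 and 1022 CPM (1.98 ± 0.06). The replicates of each group lay within a few percent of each other for NDRG1, and the means were 3.96-fold apart. The other largest rises were in PSG1 (2.14), CHAC1 (1.96), DDIT3 (1.96), SFTA1P (1.92) and ATF3 (1.90). PSG1 belongs to a family of near-identical genes, so its reads may be shared with its paralogs and its value is uncertain.

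LGALS12, which encodes galectin-12, was at 61.6, 64.3 and 55.8 CPM untreated and at 9.13, 6.43 and 7.89 CPM with MOO, a log2 fold change of -2.96 ± 0.12 with an edgeR adjusted p of 6.09e-08. ID3, an inhibitor of basic helix-loop-helix factors that BMP signals induce, was at 22.9, 23.3 and 23.6 CPM untreated and at 3.80, 3.21 and 3.37 CPM with MOO (-2.75 ± 0.10). CEMIP, which binds hyaluronan and starts its breakdown, was at 264, 284 and 323 CPM untreated and at 44.1, 49.2 and 57.7 CPM with MOO (-2.53 ± 0.11). The groups did not overlap in any of these genes, and every MOO library was far below the lowest untreated library. COL1A2, a chain of type I collagen, fell by 2.11 on the log2 scale, and TNC, the matrix protein tenascin-C, by 1.89. The other largest falls were in RCSD1 (-2.06), RARRES3 (-1.98), AQP1 (-1.94), SOX4 (-1.93) and ID1 (-1.87). Groups that do not overlap were a condition for naming these 20 genes, and 46.6% of all genes tested met it.

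**Figure D2:**
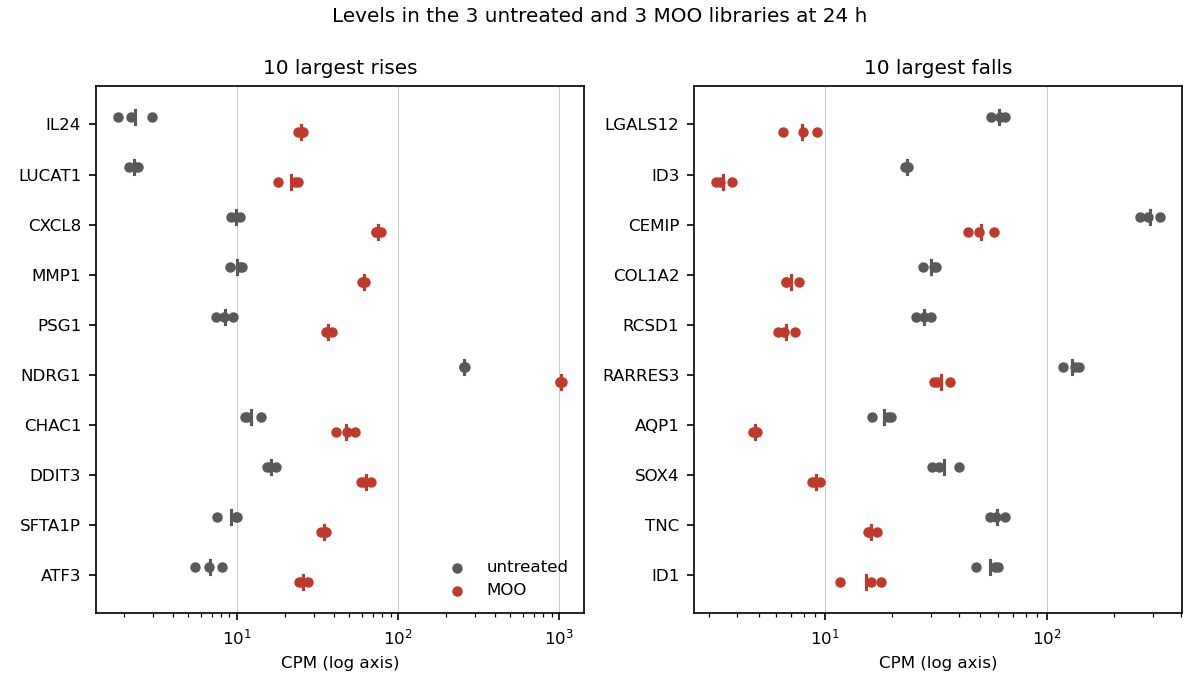
The 10 genes with the largest rise (left) and the 10 with the largest fall (right) with MOO at 24 h; the x axis is CPM on a log scale, each point is 1 library, grey for untreated and red for MOO, and the bar is the mean of 3. Groups that do not overlap were a condition for these genes, and the distance between them is what the plot shows, as for CXCL8 at 72.7 CPM and above with MOO against 10.5 CPM and below without.

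Stress genes of the ATF4 and CHOP branch rose almost as a block. Of 18 genes tested, 17 were higher with MOO and none was lower, beside 18.1% higher and 17.7% lower of all genes. Of the 17, 11 rose by at least 1 on the log2 scale, as did 2.27% of all genes. The median log2 fold change was 1.40 beside -0.00476 over all genes. DDIT3, which encodes CHOP itself, was at 17.4, 16.0 and 15.3 CPM untreated and at 68.4, 62.0 and 59.1 CPM with MOO. CHAC1, an enzyme that degrades glutathione, was at 14.1, 11.6 and 11.3 CPM untreated and at 54.0, 48.3 and 41.1 CPM with MOO. TRIB3, a pseudokinase that ATF4 and CHOP induce, was at 48.7, 47.8 and 42.8 CPM untreated and at 160, 149 and 135 CPM with MOO. The groups were apart in all 18 genes, beside 46.6% of all genes tested. SESN2 (1.86), NUPR1 (1.79) and PPP1R15A (1.76), the last a phosphatase subunit that restores translation, rose by similar amounts, and ATF4 itself rose by 0.65. Only SLC7A5, an amino acid transporter of the list, did not pass the test (0.12 ± 0.06), and 13 of the 18 were called higher in the fit of all 18 libraries.

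The window before the start of CHAC1 is shown because CHAC1 had the largest rise of this list and its promoter holds the letters TGATGNAA, the core of the CHOP and ATF4 composite site, 209 to 202 bases before the start. On either strand this motif occurred in 3 of the 15 list members whose promoter was found in RefSeq (20%), in 1.4% of the promoters of genes tested and in 3.19% of all 27305 promoters of that table. The 250 bases lie at chr15:40953221-40953470 on the + strand of GRCh38.p14, the build of the RefSeq table, and the capitals mark the match, here on the opposite strand. A match describes the letters and not a bound site.
CHAC1: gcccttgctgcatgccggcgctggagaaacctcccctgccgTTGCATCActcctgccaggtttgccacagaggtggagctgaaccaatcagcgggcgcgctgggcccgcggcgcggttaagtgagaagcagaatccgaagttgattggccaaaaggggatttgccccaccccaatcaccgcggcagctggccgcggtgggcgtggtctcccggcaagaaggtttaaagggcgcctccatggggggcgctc

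Chaperones of the endoplasmic reticulum, the targets of the other branches of the unfolded protein response, rose in 13 of 18 genes tested. None fell, the share higher was 72.2% beside 18.1% of all genes, and the median log2 fold change was 0.32. DNAJB9, a cochaperone of the folding enzyme BiP, had the largest rise: it was at 15.8, 17.8 and 17.8 CPM untreated and at 45.9, 43.9 and 45.0 CPM with MOO (1.39 ± 0.08). HERPUD1, which helps to remove misfolded proteins, rose by 1.28, and HSPA5, which encodes BiP, rose from 735, 763 and 730 CPM to 1355, 1316 and 1372 CPM (0.86 ± 0.06). The groups did not overlap in DNAJB9, HERPUD1 or HSPA5, while they did not overlap in 46.6% of all genes tested. Of these 18 genes 7 were called in the fit of all 18 libraries. Cytosolic heat shock genes went the other way in most members: 7 of 12 were lower and 2 higher. The shares were 58.3% lower and 16.7% higher, beside 17.7% and 18.1% of all genes. HSPB1 was at 579, 513 and 438 CPM untreated and at 362, 324 and 245 CPM with MOO (-0.72 ± 0.13), while HSPA1B rose by 0.24 and its near-identical copy HSPA1A by 0.20, both uncertain because they share reads. In the fit of all 18 libraries 1 heat shock gene was called lower, and the HSPA1B call was lost without untreated replicate 2 (adjusted p 0.0873 by edgeR) or MOO replicate 2 (adjusted p 0.0685 by edgeR).

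NRF2 targets, the genes of glutathione and thioredoxin defence, were higher in 10 of 16 genes tested and lower in 1, with a median log2 fold change of 0.65. SLC7A11, the cystine importer, was at 24.4, 24.5 and 28.1 CPM untreated and at 76.2, 80.0 and 97.3 CPM with MOO (1.72 ± 0.10). OSGIN1 rose by 1.55, the sulfiredoxin gene SRXN1 by 1.17, the ferritin light chain gene FTL by 1.14 and the thioredoxin reductase gene TXNRD1 by 1.12. Not all classical members moved: NQO1 was at a mean of 183 CPM untreated and 201 CPM with MOO and did not pass the test (0.13), and AKR1C1 was lower, at 10.3, 11.5 and 10.5 CPM untreated and 6.95, 7.38 and 6.52 CPM with MOO (-0.64 ± 0.10), a call that was lost in the fit of all 18 libraries (8 NRF2 targets higher, none lower). Among 6 targets of the aryl hydrocarbon receptor, the sensor of planar aromatic compounds, 2 were higher (33.3%, near the 35.8% of all genes called in either direction): CYP1A1, from between 1.32 and 1.60 CPM to between 4.50 and 4.65 CPM (1.64 ± 0.16), and TIPARP by 0.54. In the fit of all 18 libraries 1 of the 7 targets then tested was called. CYP1B1 of the same list was at 112, 124 and 132 CPM untreated and at 101, 114 and 124 CPM with MOO, with overlapping groups. Metallothioneins, which bind zinc and copper, were higher in MT1X (1.64 ± 0.10), MT1E (1.35) and MT2A (1.17) among 6 genes of that list tested, and the zinc exporter SLC30A1 was lower (-0.57). In the fit of all 18 libraries 2 of the 7 then tested were called higher and none lower, and 1 and none without the 2 libraries that stood apart. Metallothionein genes share sequence, and their values are uncertain. Genes of autophagy and the lysosome were higher in 10 of 15 and lower in 1, TFEB (-0.52), led by NEU1 (1.10) and the autophagy receptor gene SQSTM1 (1.09), and 5 of the 15 were called higher and none lower in the fit of all 18 libraries.

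Genes of glycolysis and the hypoxia response rose in 19 of 20 genes tested and fell in none, beside 18.1% higher of all genes. Of the 19, 10 rose by at least 1 on the log2 scale, as did 2.27% of all genes. The median log2 fold change was 0.96. CA9, which encodes a carbonic anhydrase, was at 3.88, 3.06 and 1.96 CPM untreated and at 12.7, 14.1 and 12.2 CPM with MOO (2.14 ± 0.18). ALDOC, which encodes a glycolytic aldolase, was at 7.14, 7.70 and 7.12 CPM untreated and at 30.3, 25.7 and 25.3 CPM with MOO (1.88 ± 0.10). BNIP3, a mitochondrial receptor for mitophagy, rose by 1.26, HK2, the first enzyme of glycolysis, by 1.05, and VEGFA, the angiogenic growth factor, by 0.92. Untreated and MOO libraries did not overlap in 19 of the 20 genes, beside 46.6% of all genes tested, and 17 were called higher in the fit of all 18 libraries. ENO1, at a mean of 4341 CPM untreated and 4838 CPM with MOO, did not pass the test (0.15).

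The window before ALDOC is shown for the letters ACGTG, the core of the hypoxia response element, which occurred on either strand in 10 of the 17 list members with a promoter in RefSeq (58.8%), in 23.3% of the promoters of genes tested and in 18.7% of all promoters. ALDOC had the largest rise among the members that held the motif and averaged 10 CPM or more. Its matches lie 240 to 236, 239 to 235 and 28 to 24 bases before the start, the first pair overlapping as a palindrome. The 250 bases are chr17:28576896-28577145 on the - strand of GRCh38.p14, with the matches in capitals.
ALDOC: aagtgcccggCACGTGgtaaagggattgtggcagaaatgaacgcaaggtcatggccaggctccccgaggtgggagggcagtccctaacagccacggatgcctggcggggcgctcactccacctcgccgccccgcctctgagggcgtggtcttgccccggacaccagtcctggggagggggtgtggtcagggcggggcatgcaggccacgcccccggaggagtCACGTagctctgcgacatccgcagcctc

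Other metabolic groups moved less. The shares called in either direction were 80% for cholesterol synthesis, 50% for liver X receptor and 75% for PPAR and lipid droplet genes. Over all genes the share was 35.8%. Cholesterol synthesis genes were higher in 16 of 20 genes tested and lower in none (median log2 fold change 0.36), with MSMO1, a sterol methyl oxidase, at 113, 124 and 109 CPM untreated and 201, 200 and 209 CPM with MOO (0.82 ± 0.06), and 6 of the 20 were called in the fit of all 18 libraries. Liver X receptor targets, which export sterols and make fatty acids, were lower in 4 of 8 and higher in none, among them the sterol exporter ABCG1 (-0.53) and ABCA1 (-0.38), and 1 of the 8 was called without untreated replicate 2 and none in the fit of all 18 libraries. PPAR and lipid droplet genes were higher in 5 of 8 and lower in 1: ANGPTL4, an inhibitor of lipoprotein lipase, was at 3.60, 3.19 and 2.60 CPM untreated and at 8.99, 7.62 and 6.52 CPM with MOO (1.30 ± 0.17), while CPT1A, the gate of fatty acid oxidation, was lower (-0.39). In the fit of all 18 libraries 1 of the 9 then tested was called higher and none lower, or 3 and 1 without the 2 libraries that stood apart. Nuclear genes of the respiratory chain changed least, with 7 of 23 lower and none higher (median -0.12, NDUFB10 -0.35). The share called was 30.4%, beside 35.8% of all genes called in either direction and 17.7% called lower. The number called lower was between 1 and 4 without untreated replicate 1, untreated replicate 2, MOO replicate 2 or MOO replicate 3, and 0 in the fit of all 18 libraries.

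All 26 mitosis genes tested were lower with MOO, with log2 fold changes between -1.33 and -0.20 and a median of -0.60, beside 17.7% of all genes called lower. KIF20A, a kinesin of cytokinesis, was at 127, 129 and 130 CPM untreated and at 49.4, 52.0 and 52.0 CPM with MOO (-1.33 ± 0.06, edgeR adjusted p 1.17e-07). PLK1, a kinase that drives entry into mitosis, was at 217, 215 and 209 CPM untreated and at 106, 110 and 101 CPM with MOO (-1.02 ± 0.06), and cyclin B1 (CCNB1) fell by 0.94. The groups did not overlap in any of the 26 genes, while they did not overlap in 46.6% of all genes tested. Every MOO library of PLK1 was at most 110 CPM. Fewer dividing cells and less of these transcripts per dividing cell cannot be told apart in bulk RNA. In the fit of all 18 libraries 7 of the 26 were called, all lower, and between 22 and 25 were called when 1 of the 6 libraries was left out.

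The window before PLK1 is shown for the letters TTTGAA, the cell cycle genes homology region found before many late cell cycle genes. PLK1 had the largest fall among mitosis genes that held the motif and averaged 10 CPM or more. On either strand it occurred in 11 of the 21 list members with a promoter in RefSeq (52.4%), in 8.11% of the promoters of genes tested and in 13.6% of all promoters. In PLK1 it lies 29 to 24 bases before the start, in capitals in the 250 bases at chr16:23678639-23678888 on the + strand of GRCh38.p14.
PLK1: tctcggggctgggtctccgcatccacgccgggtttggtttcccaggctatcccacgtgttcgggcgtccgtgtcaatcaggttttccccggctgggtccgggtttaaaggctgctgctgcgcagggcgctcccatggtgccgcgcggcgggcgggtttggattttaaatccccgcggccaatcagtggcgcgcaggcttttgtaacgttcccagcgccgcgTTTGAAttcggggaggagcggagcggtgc

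DNA replication genes moved less than mitosis genes at 24 h: 11 of 26 were lower and 1 higher, with a median log2 fold change of -0.20. The share of these genes called was 46.2%, beside 35.8% of all genes, and 42.3% were called lower, beside 17.7% of all genes. TYMS, which makes thymidylate, was at 128, 122 and 113 CPM untreated and at 87.7, 89.0 and 80.5 CPM with MOO (-0.50 ± 0.07), and CDC6, a licensing factor, was at 87.7, 92.9 and 93.8 CPM untreated and at 103, 101 and 113 CPM with MOO (0.20 ± 0.07). The CDC6 call was lost with library sizes alone and without untreated replicate 1 or 2 or MOO replicate 2 or 3, and the number called lower was 6 without untreated replicate 2, 7 without MOO replicate 2 and 0 in the fit of all 18 libraries. Targets of p53 were mixed, with 7 of 18 higher and 2 lower (50% called, beside 35.8% of all genes). The cell cycle inhibitor gene CDKN1A rose by 0.88, GADD45A by 0.89 and the pro-apoptotic BBC3 by 0.97, while MDM2 (0.09) and BAX (0.17) did not pass the test and FDXR was lower (-0.75); 1 p53 target was called higher in the fit of all 18 libraries, or 2 without the 2 libraries that stood apart. MYC rose, from 189, 188 and 191 CPM to 292, 314 and 271 CPM (0.62 ± 0.07), while 12 of the 19 MYC and ribosome biogenesis genes were lower, with UTP20 lowest (-0.74 ± 0.09); 3 were called lower and none higher in the fit of all 18 libraries, where the call of MYC was lost. Among 15 BCL2 family and IAP genes 4 were lower and 2 higher, a share of 40% near the 35.8% of all genes, with BMF, a BH3-only killer, lowest (-1.20 ± 0.17), and the number higher was 4 without MOO replicate 3 and 0 in the fit of all 18 libraries (1 without the 2 libraries that stood apart), where 2 were lower.

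Interferon-stimulated genes, the antiviral effectors, fell in 16 of 20 genes tested and rose in 1, with a median log2 fold change of -0.91. The share lower was 80%, beside 17.7% of all genes. Of the 20 genes 10 fell by at least 1, beside 2.71% of all genes. IFIT1, which binds foreign RNA caps, was at 85.9, 90.6 and 82.3 CPM untreated and at 29.7, 28.5 and 28.7 CPM with MOO (-1.58 ± 0.07). MX1, a GTPase that blocks viruses, was at 35.9, 33.7 and 35.1 CPM untreated and at 12.2, 12.2 and 12.0 CPM with MOO (-1.53 ± 0.08). OASL, of the oligoadenylate synthetase family, was at 37.0, 38.9 and 33.9 CPM untreated and at 10.6, 10.2 and 11.1 CPM with MOO (-1.79 ± 0.09). In each, the MOO libraries lay close together and well below the untreated libraries. IFI44L had the largest fall of the list (-2.19 ± 0.34) at about 1 CPM untreated. IRF7, a factor that drives interferon genes, rose instead, from 29.9, 26.7 and 22.6 CPM to 46.4, 45.0 and 36.6 CPM (0.69 ± 0.12), and IFI27 (-0.07) and BST2 (-0.08) did not pass the test. When all 18 libraries were fitted, 11 were called lower and none higher.

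The window before IFIT1 is shown for the interferon-stimulated response element, searched as GAAA, any 2 bases and GAAA again, of which it holds 2 copies, 116 to 107 and 103 to 94 bases before the start. IFIT1 had the largest fall among members that held the motif and averaged 10 CPM or more. On either strand the motif occurred in 10 of the 14 list members with a promoter in RefSeq (71.4%), in 2.4% of the promoters of genes tested and in 3.07% of all promoters. IFI27 and BST2 hold it as well. The capitals mark both copies, read on the opposite strand, in the 250 bases at chr10:89392373-89392622 on the + strand of GRCh38.p14.
IFIT1: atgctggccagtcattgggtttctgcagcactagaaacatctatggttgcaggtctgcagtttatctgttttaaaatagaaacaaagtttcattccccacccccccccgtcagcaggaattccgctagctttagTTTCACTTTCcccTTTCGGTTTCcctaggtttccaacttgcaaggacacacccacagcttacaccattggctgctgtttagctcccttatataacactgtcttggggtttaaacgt

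Secreted cytokines and chemokines were higher in 10 of 19 genes tested and lower in 2. In the fit of all 18 libraries 7 were called higher and 1 lower. Beside IL24 and CXCL8, the neutrophil chemokine CXCL2 rose by 1.57 ± 0.10, from 6.31, 5.83 and 6.39 CPM to 19.2, 18.4 and 17.5 CPM, and the adhesion receptor gene ICAM1 of the same list by 1.03. CCL2, the monocyte chemokine, was lower at 1.16, 1.83 and 1.96 CPM untreated against 0.325, 0.206 and 0.291 CPM with MOO (-2.60 ± 0.34), and IL6 did not pass the test (0.03). AP-1 and immediate early genes were higher in 11 of 14 and lower in 2. JUN was at 263, 251 and 270 CPM untreated and at 541, 547 and 492 CPM with MOO (1.01 ± 0.07), ATF3 rose by 1.90 and EGR1 by 1.20, whereas FOS was lower, from 49.2, 59.3 and 58.7 CPM to 40.7, 36.4 and 37.9 CPM (-0.55 ± 0.09). When all 18 libraries were fitted, 4 of the 15 then tested were called higher and none lower, so that the call of FOS was lost, and 7 were higher and none lower without the 2 libraries that stood apart. Output genes of the ERK pathway were higher in 7 of 13 and lower in 2, and DUSP5, a phosphatase that restrains ERK in the nucleus, led with 79.8, 84.5 and 76.5 CPM untreated and 271, 257 and 256 CPM with MOO (1.70 ± 0.06); 3 of the 13 were called higher in the fit of all 18 libraries. Of 9 EGF receptors and ligands, 4 were higher, led by AREG (0.67 ± 0.07), and 4 lower, led by BTC (-0.96 ± 0.18). In the fit of all 18 libraries 1 was called higher and 2 lower, or 3 and 3 without the 2 libraries that stood apart. The shares called in either direction were 63.2% for cytokine, 92.9% for AP-1, 69.2% for ERK and 88.9% for EGF genes, beside 35.8% of all genes.

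**Figure D3:**
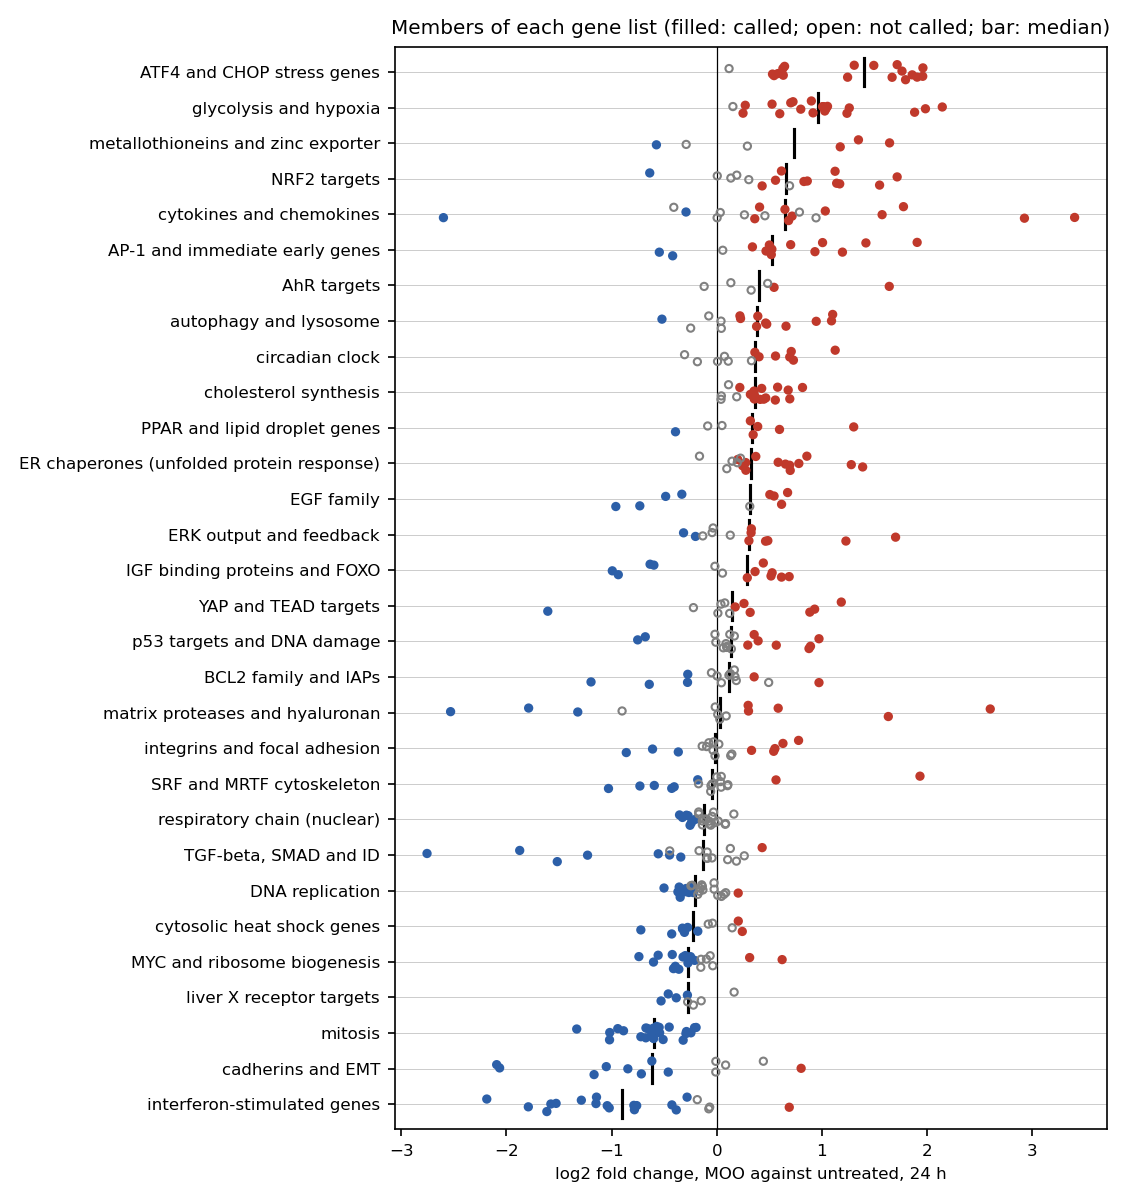
Each point is 1 member of a gene list that was tested, with its log2 fold change with MOO at 24 h on the x axis; filled points were called (red higher, blue lower), open points were not, and the black bar is the list's median. The lists run from ATF4 and CHOP stress genes at the top (median 1.40) to interferon-stimulated genes at the bottom (median -0.91), and all 26 mitosis points are filled and below 0.

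Genes that act in adhesion, matrix and migration changed in both directions. Matrix protease and hyaluronan genes were higher in 5 of 13 and lower in 3: MMP1 had the largest rise, and beside CEMIP, the protease inhibitor gene TIMP3 fell by 1.32 and the hyaluronan synthase gene HAS2 by 1.79. The groups of MMP1 and CEMIP lay well apart. Among 17 integrin and focal adhesion genes, 5 were higher, led by ITGA5, an integrin chain for fibronectin (0.78 ± 0.06), and 3 lower, led by FN1, fibronectin itself, at 510, 578 and 671 CPM untreated and 288, 315 and 369 CPM with MOO (-0.86 ± 0.11). YAP and TEAD targets were higher in 6 of 12, led by ANKRD1 (1.18 ± 0.06), and lower in 1, the matrix protein gene THBS1, which was at 1223, 1328 and 1450 CPM untreated and at 401, 436 and 480 CPM with MOO (-1.61 ± 0.09). Cytoskeleton genes of the SRF group were lower in 6 of 18 and higher in 2. TAGLN fell by 1.03 ± 0.11 and the called rise of CNN1 rested on 1, 6 and 3 reads untreated and 15, 14 and 14 reads with MOO. The shares called in either direction were 61.5% for matrix protease, 47.1% for integrin, 58.3% for YAP and 44.4% for SRF genes, beside 35.8% of all genes. In the fit of all 18 libraries 2 of the 15 matrix protease genes then tested were higher and 3 lower. For integrin genes the numbers were 2 and 2, and for YAP genes 3 and 1. Of the SRF genes 1 was higher and 2 lower, or 2 and 3 without the 2 libraries that stood apart.

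Cadherin and EMT genes were lower in 8 of 13 (61.5%) and higher in 1, beside 17.7% lower and 18.1% higher of all genes. CDH1, E-cadherin, was at 5.70, 4.76 and 7.12 CPM untreated and at 1.21, 1.28 and 1.62 CPM with MOO (-2.09 ± 0.21), and the keratin gene KRT18 was at 693, 681 and 594 CPM untreated and at 319, 296 and 265 CPM with MOO (-1.17 ± 0.09). The mesenchymal genes VIM (-0.62), SNAI1 (-2.06) and SNAI2 (-0.46) were lower as well, and the tight junction gene OCLN rose (0.80 ± 0.10). Epithelial and mesenchymal members were thus both among those that fell, and ZEB1 (-0.01) and ZEB2 (0.08) did not pass the test. In the TGF-beta, SMAD and ID list 7 of 18 were lower and 1 higher, SMAD7 (0.43 ± 0.10). The share of this list called was 44.4%, beside 35.8% of all genes, and 38.9% were called lower, beside 17.7% of all genes. The ligand gene BMP4 was at 554, 548 and 517 CPM untreated and at 191, 194 and 182 CPM with MOO (-1.52 ± 0.06), beside the falls of ID1 and ID3, while SMAD2 (-0.09), SMAD3 (-0.10) and SMAD4 (-0.04) did not pass the test; 4 of the list were called lower and none higher in the fit of all 18 libraries.

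Of 119 migration related genes tested, 18 were higher (15.1%) and 23 lower (19.3%), near the 18.1% and 17.7% of all genes. Its median log2 fold change was -0.05, and in the fit of all 18 libraries 7 of 124 tested were higher and 8 lower. The study took this list from published work, while it kept the core genes described next because they responded to CKI in this series, so that the core genes are not independent evidence of a direction. Of the aquaporins, water channels, AQP3, AQP5 and AQP11 were chosen for mention after their values were seen. AQP5 was at 9.19, 9.14 and 8.44 CPM untreated and at 1.16, 1.20 and 0.872 CPM with MOO (-3.05 ± 0.16), AQP1 was at 16.2, 19.9 and 19.2 CPM untreated and at 4.91, 4.82 and 4.69 CPM with MOO, and AQP3 fell by 1.24. AQP6 had 8, 14 and 12 reads untreated and 0 in each MOO library, and AQP11 rose by 0.76. Of 13 core genes tested, 5 were lower and none higher: CDH1, CTNNB1 (-0.56 ± 0.07), RB1 (-0.34), CCND1 (-0.32) and PIK3CA (-0.29). The share called was 38.5%, near the 35.8% of all genes called in either direction, with 17.7% of all genes called lower. CTNNB1, beta-catenin, was at 405, 421 and 433 CPM untreated and at 273, 271 and 310 CPM with MOO. The calls of RB1 and PIK3CA were lost without untreated replicate 2 or 3 or MOO replicate 2, and that of PIK3CA also without MOO replicate 1, so that 3 core genes were called without untreated replicate 2 or 3 or MOO replicate 2. AKT1 (-0.0019), AKT2 (-0.16), JAK2 (-0.48), APC (-0.22) and CDK4 (0.13) did not pass the test. ACTB, whose reads can also come from other actin copies, fell by 0.40 ± 0.08, from 7686, 7733 and 7215 CPM to 5998, 5849 and 5290 CPM. In the fit of all 18 libraries 1 of the core genes was called, and none of ACTB, CTNNB1, CCND1, AKT1 and AKT2.

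Among 13 genes of IGF binding proteins and FOXO, 7 were higher, led by KLF9 (0.69 ± 0.12), and 4 lower, led by IGFBP4, at 3266, 3173 and 2912 CPM untreated and 1693, 1626 and 1389 CPM with MOO (-0.99 ± 0.09). Circadian clock genes were higher in 7 of 13 and lower in none, and BHLHE41, a repressor of the clock, had the largest rise (1.13 ± 0.11). The shares called in either direction were 84.6% for IGF and FOXO genes and 53.8% for clock genes, beside 35.8% of all genes. When all 18 libraries were fitted, 3 of the IGF and FOXO genes were called higher and 3 lower, and 5 clock genes higher and none lower.

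Adding macrozamin to oxymatrine and oxysophocarpine was tested by comparing MOO with OO directly. Of 14211 genes tested, 0 were DE (0%) by edgeR's quasi-likelihood test, 569 had an unadjusted p under 0.05, and DESeq2 also called 0. The smallest p-values were those of ANK3 (log2 difference, MOO minus OO, of -1.16, 95% interval -1.69 to -0.62), LCA10 (-1.92, -2.83 to -1.02), DUSP1 (0.43, 0.22 to 0.64), TNFRSF9 (0.83, 0.37 to 1.28) and MMP1 (0.54, 0.24 to 0.84), each with an edgeR adjusted p of 0.696. MMP1 was at 45.0, 34.8 and 46.4 CPM in OO libraries, below each MOO library. The intervals of large effects were wide enough to hold sizeable differences. Without OO replicate 2 the log2 differences of ANK3 (-1.18), LCA10 (-1.86), IL24 (-0.81) and CHAC1 (-0.08) did not pass the test either. With all libraries the interval of IL24 ran from -1.12 to 0.05, that of CHAC1 from -0.45 to 0.85 and that of EGR1 from -1.89 to 1.92. The result depended on which OO library was left out. Without OO replicate 2, which stood apart, 2 genes of 14388 were DE (0.0139%), both immediate early genes. EGR1 was at 128, 158 and 142 CPM with MOO and at 31.7, 357 and 33.3 CPM in OO libraries, 2.13 ± 0.12 higher with MOO without replicate 2 (edgeR adjusted p 0.00896). FOS was at 40.7, 36.4 and 37.9 CPM with MOO and at 13.2, 83.7 and 11.5 CPM in OO libraries (1.63 ± 0.12, edgeR adjusted p 0.0268). In both, OO replicate 2 was above and the other 2 OO libraries below all MOO libraries. Without OO replicate 1, which leaves the library that stood apart as 1 of 2, 2184 genes were DE, and without any other library 0.

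Whole CKI holds the 3 compounds with the other components of the mixture, and 2279 of 14246 genes (16%) were DE between MOO and CKI, 1221 (8.57%) higher and 1058 (7.43%) lower with MOO. Without CKI replicate 1, which stood apart, the number was 4130 (28.7%), and it was 717 without CKI replicate 2, 536 without MOO replicate 1, 405 without MOO replicate 2 and 847 without MOO replicate 3. With the replicate number as a block it was 204. CXCL8 differed most among genes higher with MOO: it was at 11.2, 6.49 and 6.53 CPM in CKI libraries, beside 72.7 CPM and above with MOO, a log2 difference of 3.21 ± 0.21 (edgeR adjusted p 0.000529). ABCA1, the cholesterol exporter, was at 39.5, 45.8 and 52.9 CPM with MOO and at 5.57, 5.98 and 6.32 CPM with CKI (2.95 ± 0.14). NUPR1 (2.46), CXCL2 (2.45) and SREBF1 (2.14), the last a master factor of lipid synthesis, followed. The largest differences the other way were in CYP1A1, at between 4.50 and 4.65 CPM with MOO and at 51.2, 87.1 and 83.6 CPM with CKI (-4.01 ± 0.22, edgeR adjusted p 0.000235), and in ANGPTL4, at between 6.52 and 8.99 CPM with MOO and at 50.0, 125 and 137 CPM with CKI (-3.76 ± 0.38). CYP1B1 (-2.46), AKR1C1 (-2.33) and HTR7 (-1.60) were lower with MOO too, and CKI replicate 1 was below all MOO libraries in AKR1C1 while the other 2 were above. All 10 genes kept their direction and call without CKI replicate 1, with AKR1C1 then at -2.83.

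**Figure D4:**
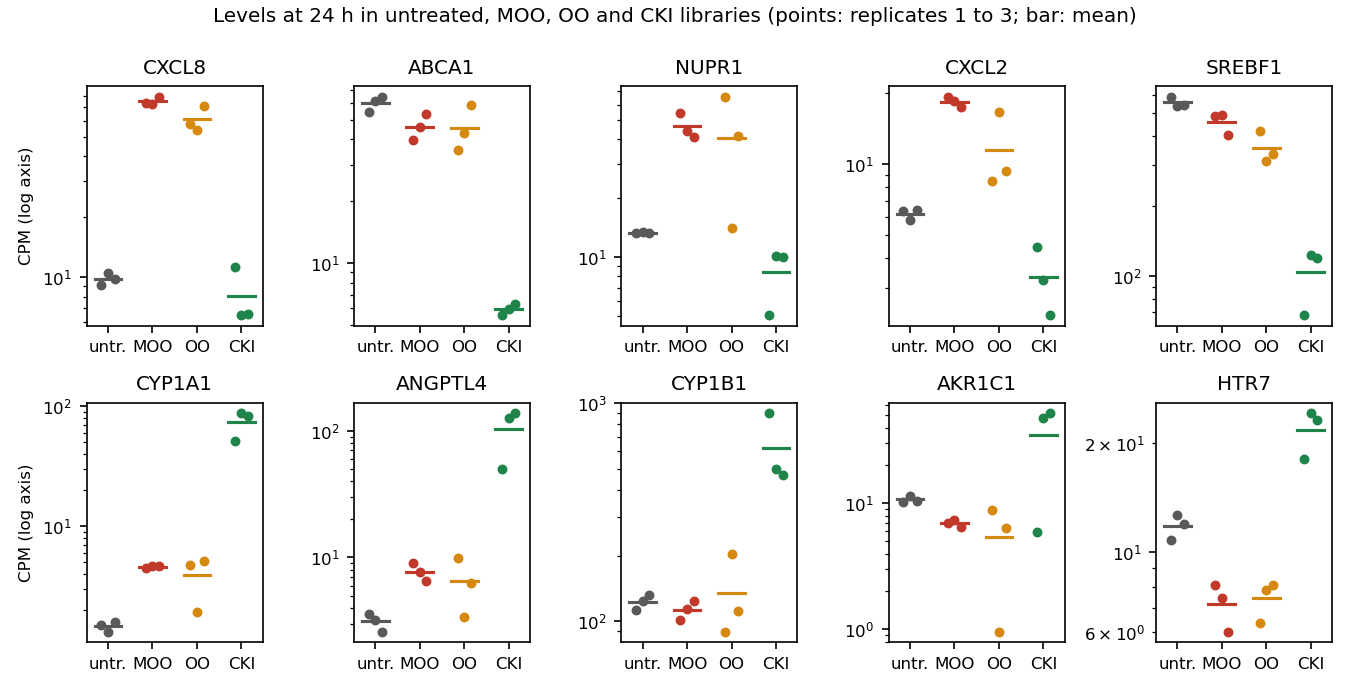
Levels at 24 h of the 5 genes with the largest difference in each direction between MOO and CKI (upper row higher with MOO, lower row lower with MOO); the y axis is CPM on a log scale, points are the 3 replicates in order from left to right in untreated, MOO, OO and CKI libraries, and bars are means. CXCL8 with CKI (6.49 to 11.2 CPM) sits near the untreated level, and CYP1A1 with MOO (4.50 to 4.65 CPM) far below CKI.

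All 6 aryl hydrocarbon receptor targets tested were lower with MOO than with CKI (median -1.93, or -1.57 without CKI replicate 1, with the same 6 calls), 5 of them called without any 1 of the MOO libraries, and 7 of 16 NRF2 targets were lower and none higher. ATF4 and CHOP genes were higher with MOO in 13 of 18 and lower in none, among them CHAC1, at between 41.1 and 54.0 CPM with MOO and at 10.7, 11.2 and 14.3 CPM with CKI (1.99 ± 0.15). Mitosis genes were higher with MOO than with CKI in 20 of 26 (median 0.62) and DNA replication genes in 18 of 26 (median 0.67), none lower. Over all genes tested 8.57% were higher and 7.43% lower with MOO than with CKI. The call counts of the lists moved with the libraries used. Without CKI replicate 1 they were 11 NRF2 genes lower, 14 ATF4 and CHOP genes higher with 1 lower, 26 mitosis genes and 22 DNA replication genes higher. Leaving out 1 of the other libraries gave between 9 and 12 ATF4 and CHOP genes, between 16 and 20 mitosis genes and between 5 and 18 DNA replication genes higher. Liver X receptor targets were higher with MOO in 5 of 8 and lower in 1, and 5 of 9 PPAR and lipid droplet genes were lower. These counts were 5 and 1, and 5 lower with 1 higher, without CKI replicate 1. Without CKI replicate 2 or any 1 MOO library 3 liver X receptor targets were higher, and without MOO replicate 2 the PPAR genes lower numbered 3.

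The effect of MOO at 24 h was set against that at 48 h, when 8701 of 14373 genes (60.5%) were DE, 4377 (30.5%) higher and 4324 (30.1%) lower. The difference between the effects (24 h minus 48 h) passed the test in 3100 of 14728 genes (21%), above 0 in 1818 (12.3%) and below 0 in 1282 (8.7%). Of 3073 of these with an effect fitted at both times, 1601 had the same sign and were larger at 48 h, 259 had the same sign and were larger at 24 h, and 1213 had opposite signs. Of the 1093 DE at both times, 147 had opposite signs. The count was between 2173 and 3989 when 1 of the 12 libraries was left out.

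ER chaperones had a called difference in 16 of 18 genes, of which 15 had the same sign at both times and the larger effect at 48 h, and 1 had opposite signs, with a median of 0.32 at 24 h and of 1.22 at 48 h on the log2 scale. HSPA5 was at 1322, 1254 and 1267 CPM untreated and at 6889, 6465 and 6565 CPM with MOO at 48 h, a log2 fold change of 2.38 beside 0.86 at 24 h, and the difference was -1.53 ± 0.07 (edgeR adjusted p 3.22e-09). DNA replication genes had a called difference in 25 of 26, of which 20 had the same sign and the larger effect at 48 h and 5 had opposite signs, with 11 lower at 24 h and 25 at 48 h, and TYMS fell by 0.50 at 24 h and by 1.63 at 48 h. Mitosis genes had a called difference in 5 of 26, near the 21% of all genes tested. All 26 were lower at both times. MMP1 rose by 2.60 at 24 h and by 4.02 at 48 h on the log2 scale (difference -1.42 ± 0.11).

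Over all genes tested the difference (24 h minus 48 h) was called above 0 in 12.3%. In hypoxia and glycolysis genes it was above 0 in all 19 of 20 genes that were called. Of these, 12 had fitted effects above 0 at both times and the larger one at 24 h, and 7 had opposite signs, 3 of them with the larger size at 48 h. Their median effect on the log2 scale was 0.96 at 24 h but 0.19 at 48 h. ALDOC in untreated libraries was at 14.1, 14.6 and 15.4 CPM at 48 h, above its 24 h level, and at 17.1, 17.3 and 17.4 CPM with MOO, so that its effect was 1.88 at 24 h and 0.24 at 48 h (difference 1.63 ± 0.12). NDRG1 likewise was at 452, 468 and 461 CPM untreated at 48 h and at 839, 844 and 775 CPM with MOO. In both genes the untreated libraries were higher and the MOO libraries lower at 48 h than at 24 h, a difference between times within a group that was not tested. In cholesterol synthesis genes the difference (24 h minus 48 h) was above 0 in all 15 of 20 that were called, of which 6 had the same sign at both times and the larger effect at 24 h, and 9 had opposite signs, 5 of them with the larger size at 48 h. These genes had a median of 0.36 at 24 h and 0.03 at 48 h.

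**Figure D5:**
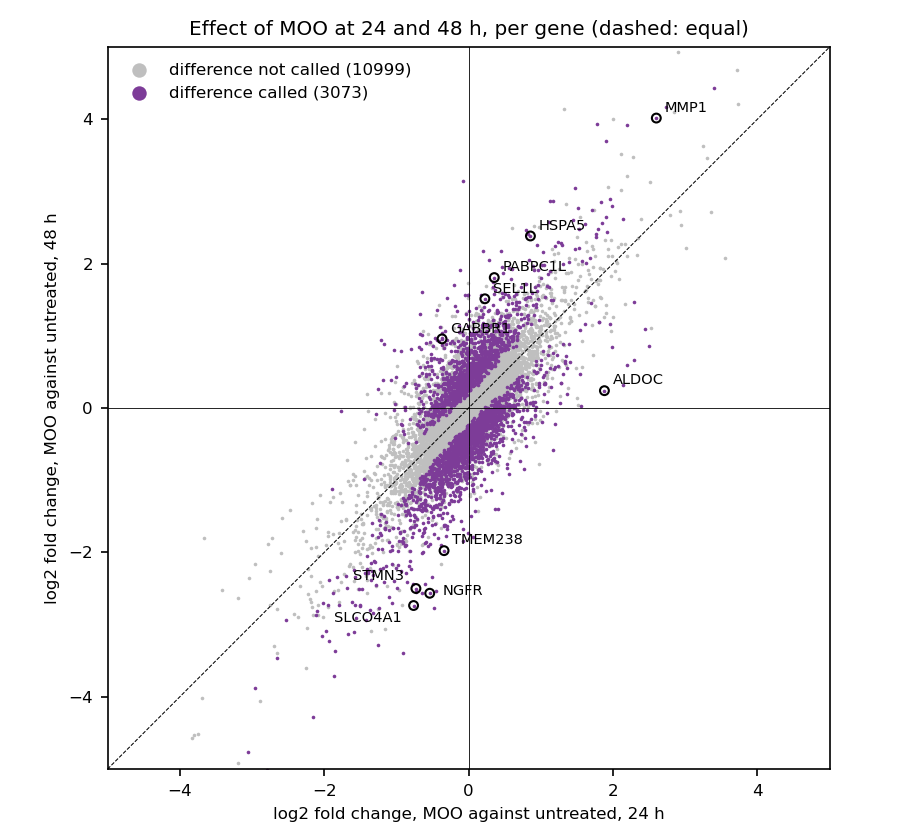
The log2 fold change of MOO against untreated at 24 h (x axis) and 48 h (y axis) for 14072 genes with both, purple where the difference between the effects was called (3073 genes) and grey otherwise; the dashed line marks equal effects, the 10 circled genes have the largest called differences among genes that averaged 10 CPM or more, and 2 genes lie outside the axes. ALDOC lies far to the right of the line and HSPA5 far above it.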

How the data were processed

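RNA of MDA-MB-231 cells was measured by strand-specific mRNA sequencing. The authors trimmed reads with Trim Galore 0.3.7, aligned them to hg19 with STAR 2.5.3a and counted them per gene with featureCounts of Subread 1.5.2, as far as the labels and methods give it, and deposited raw counts of 27978 genes in 54 libraries. Total counts were between 18649291 and 24918928 in the 6 libraries at 24 h, and 7573 genes had no count in them.

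Groups were taken from the labels. Genes with few counts were removed with filterByExpr, libraries were scaled by TMM, and the 2 groups of each comparison were fitted with edgeR 4.0.16 in R 4.3.3 (quasi-likelihood test; p-values adjusted by Benjamini-Hochberg across every gene tested and called under 0.05). The difference between time points was the interaction term over 12 libraries. DESeq2 1.42.0, other scalings, filters and fits, the replicate number as a block, a fit without the 2 libraries that stood apart (chosen after seeing the data) and leaving out each library were the alternatives. The fits were tested on simulated counts, where 200 of 200 changed genes were recovered with 12 false calls among 14233 genes in a 2 group comparison, and 197 of 200 with 15 false calls among 14568 genes for the interaction. The changed genes were not near the floor, and their median change was 1.026 on the log2 scale in the 2 group comparison. The spread was the same for all genes and no library stood apart. The simulation therefore does not show how often smaller changes, or changes in the comparisons with OO and CKI, would be found. CPM values (reads of a gene over the scaled library total) share 1 TMM scaling over 18 libraries and are not per length, so levels are compared within a gene only.

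Named genes were, in MOO against untreated, the 10 largest rises and falls among called genes that averaged 10 CPM or more and whose groups did not overlap, and per list the called member with the largest rise and fall; in the other comparisons the 5 largest in each direction by the same CPM limit, or, with none called, the 5 smallest p. Core genes and proteins the study measured were named too, and some genes are not reported here. Other members named in the text were chosen after their values were seen. The members and lists were chosen with earlier results of these data known.

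Promoters are the 250 bases before the RefSeq start on GRCh38.p14, which is not the build of the counts, matched by symbol and searched on both strands, and one is shown per motif. The counts carry no coordinates.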

Additional observations from a re-analysis of the deposited data

Results flagged for a closer look

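The effect of MOO differed between 24 and 48 h in 3100 genes by the test of the difference itself (interaction term, edgeR adjusted p under 0.05). The genes named for the largest differences (log2 fold change at 24 h minus that at 48 h) stood above 0 for NGFR at 2.02, SLCO4A1 at 1.96, STMN3 at 1.76, ALDOC at 1.63 and TMEM238 at 1.63. They stood below 0 for HSPA5 at -1.53, PABPC1L at -1.46, MMP1 at -1.42, GABBR1 at -1.33 and SEL1L at -1.30. NGFR, SLCO4A1, STMN3 and TMEM238 fell at 48 h by more than at 24 h. NGFR, a neurotrophin receptor, was at 75.2, 68.3 and 64.0 CPM untreated and at 47.9, 47.6 and 47.6 CPM with MOO at 24 h, and at 80.6, 86.8 and 93.8 CPM untreated and 13.6, 17.7 and 12.5 CPM with MOO at 48 h. SEL1L, which acts in the removal of misfolded proteins, was at 290, 257 and 285 CPM with MOO and at 110, 89.5 and 93.8 CPM untreated at 48 h, while its 24 h effect did not pass the test (0.23).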

How the results depend on the processing

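For MOO against untreated at 24 h, 1588 of 15191 genes were called with all 18 libraries of batch 1 at 24 h in one fit. In that fit without OO replicate 2 and CKI replicate 1, an alternative chosen after seeing the data, 2011 of 15461 were called. When a change of 1 or more on the log2 scale was required too, 709 were called, beside 5097. The count was between 3527 and 5403 when single libraries were left out. For MOO against OO the count was between 0 and 2184 when single libraries were left out, and for MOO against CKI between 405 and 4130. Other scalings, DESeq2 and filters kept each count within 1.5 times. Same-numbered untreated and MOO libraries at 24 h had correlations of their deviations of 0.184, -0.0173 and 0.195, and those of unlike number between -0.227 and 0.0503. Same-numbered CKI and MOO libraries had -0.3, 0.0836 and -0.318, and those of unlike number between -0.172 and 0.33. The labels do not say that a number joins libraries, and whether it does was not tested. With the replicate block the counts were 7183 for MOO against untreated, 0 against OO, 204 against CKI, 2973 for the difference between times and 8946 at 48 h. Of 81 named genes, 51 kept their direction and side of the threshold under every alternative run. AKT1 (-0.0019) changed sign with RLE size factors (0.0013), with DESeq2 (0.0012) and without untreated replicate 1 (0.0025), untreated replicate 2 (0.012), MOO replicate 2 (0.0094) or MOO replicate 3 (0.011); it was not called, and ran from -0.025 to 0.012 over all single libraries left out. The cause was not tested. AQP6, BCAN and CNN1 rest on at most 22 reads a library, which limits what their values can show.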
